A study of Mus musculus with 6 samples.

Results

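Lysine acetyltransferases transfer an acetyl group from acetyl-CoA to lysines of histones and other proteins. The 10 mouse genes described here encode nuclear enzymes of 3 families: Ep300 and Crebbp (CBP/p300 family), Kat2a, Kat2b and Kat14 (GNAT family), and Kat5, Kat6a, Kat6b, Kat7 and Kat8 (MYST family). They were taken by name, as 10 of the 21938 protein-coding genes of the annotation, by a rule that uses no measured value. The choice was made with earlier results of these data known. For each gene, the listed control peaks of H3K27ac were read at the transcription start sites (TSSs), in the gene body and within 50 kb of the gene. H3K27ac, acetylation of lysine 27 of histone H3, is deposited mainly by p300 and CBP and is found at active promoters and enhancers. The peaks at these 10 genes therefore describe the mark at the genes for the enzymes that place it and related marks.

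The ChIP-seq series holds 6 samples of E14Tg2A mouse embryonic stem cells (mESCs) that carry Rosa26-Cre and Oct4-IRES-Puro alleles and were grown with LIF, PD0325901 and CT-99021. There were 2 replicates each of DMSO control, of NVP-2 (a CDK9 inhibitor, 100 nM for 120 min) and of actinomycin D (a DNA-binding inhibitor of transcription, labelled 800 nM and given as 1 µg/ml in the protocol, for 120 min). HEK293T chromatin was added to every sample as a spike-in, and the methods call the replicates biological. The data analysed here are 22973 peak positions from control cells, called on both replicates together, with no height, score or read count. Width and position are therefore the only measures of a peak, no replicate error exists for them, no test was possible, and inhibitor-treated cells were not analysed here. Positions alone do not show the depth behind a peak.

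The listed peaks carried the marks of the labelled cell type. Of 10 embryonic stem cell markers, 8 had a peak within 1 kb of a TSS, among them Pou5f1 (34042 bp wide), Nanog (36014 bp) and Sox2 (19693 bp), which encode core pluripotency factors, and Utf1, the narrowest at 3638 bp. Klf4 and Dppa3 had none. Of the markers of other cell types, 1 of 5 fibroblast genes (Vim), 2 of 4 endoderm genes (Gata4 and Gata6), 0 of 3 neural genes and 1 of 3 mesoderm genes (Kdr) had such a peak, each 4231 bp wide or less. Over all protein-coding genes the share was 51.9%.

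The 3 families differ in chemistry and in partners. CBP and p300 are large, closely related coactivators that acetylate H3K18, H3K27 and many other proteins. KAT2A (GCN5) and KAT2B (PCAF) are alternative catalytic subunits of the SAGA and ATAC complexes and acetylate H3K9, and KAT14 is a second acetyltransferase of ATAC. Among the MYST enzymes, KAT5 (TIP60) is the catalytic subunit of NuA4, KAT6A (MOZ) and KAT6B (MORF) act with BRPF proteins mainly on H3K23, KAT7 (HBO1) acetylates H3K14 and histone H4, and KAT8 (MOF) acetylates H4K16 within the MSL complex and also acts in the NSL complex.

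The sequences below are the bases just before the TSS of the longest isoform in GENCODE M21, read from the RefSeq GRCm38 sequence along the strand of the gene and shortened where they run into an annotated exon. They are shown for the Ep300 and Crebbp pair, for the Kat2a and Kat2b pair and for Kat6b, whose promoter peak was the widest. Ep300 lies on the plus strand (chr15:81585147-81585350, 204 bases), Crebbp on the minus strand (chr16:4213998-4214247), Kat2a on the minus strand (chr11:100712466-100712715), Kat2b on the plus strand (chr17:53566721-53566860, 140 bases) and Kat6b on the plus strand (chr14:21499535-21499769, 235 bases). Capitals mark motif matches, searched on both strands. One motif is the TATA box, TATAAA. The next is the box bound by NF-Y, written CCAAT. The GC box, bound by SP factors, is GGGCGG. The core bound by ETS factors was searched as CTTCCG. The palindromic E-box was searched as CACGTG, and the NRF1 motif is given by name alone.
Ep300: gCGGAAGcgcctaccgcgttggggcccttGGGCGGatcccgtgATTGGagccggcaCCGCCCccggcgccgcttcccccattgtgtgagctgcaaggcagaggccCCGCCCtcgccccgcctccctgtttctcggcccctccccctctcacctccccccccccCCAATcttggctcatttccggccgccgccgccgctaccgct
Crebbp: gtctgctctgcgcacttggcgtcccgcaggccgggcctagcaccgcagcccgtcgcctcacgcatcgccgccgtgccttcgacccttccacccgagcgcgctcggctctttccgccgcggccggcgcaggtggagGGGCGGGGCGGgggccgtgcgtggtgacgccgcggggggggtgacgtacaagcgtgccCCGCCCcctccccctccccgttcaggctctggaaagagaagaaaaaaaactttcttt
Kat2a: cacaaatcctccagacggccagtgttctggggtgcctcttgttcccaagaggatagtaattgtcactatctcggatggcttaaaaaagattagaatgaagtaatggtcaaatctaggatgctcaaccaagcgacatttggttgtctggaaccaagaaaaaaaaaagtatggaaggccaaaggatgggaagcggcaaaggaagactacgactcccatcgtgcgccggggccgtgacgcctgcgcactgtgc
Kat2b: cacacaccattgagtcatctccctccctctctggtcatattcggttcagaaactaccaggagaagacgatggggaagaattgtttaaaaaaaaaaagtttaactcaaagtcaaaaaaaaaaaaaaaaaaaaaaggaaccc
Kat6b: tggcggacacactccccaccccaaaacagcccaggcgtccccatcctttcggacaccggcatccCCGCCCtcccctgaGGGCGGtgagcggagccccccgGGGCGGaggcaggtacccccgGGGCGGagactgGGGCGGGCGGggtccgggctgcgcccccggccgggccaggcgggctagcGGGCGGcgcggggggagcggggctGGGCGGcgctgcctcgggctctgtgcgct
Over the whole 250 bases before the TSS, GC content was 69.6% at Ep300, 71.2% at Crebbp, 49.2% at Kat2a, 40.8% at Kat2b and 79.6% at Kat6b. Ep300 and Crebbp were both rich in GC and close in value, and the genes with the widest peaks, Kat6b and Kat2b, lay at the opposite ends of the GC range of the 9 promoters read. Kat6b held 8 GC boxes, of which 1 pair overlapped, and no other match. Crebbp held 3 GC boxes, of which 1 pair overlapped, and Ep300 held 3 GC boxes, 2 CCAAT matches and 1 ETS core. Kat2b held 1 CCAAT match, which lies in an exon of another of its isoforms and is not shown, and Kat2a held no match at all.

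In all, 9 of the 10 members had an entry in the RefSeq promoter table and were read. Kat6a was not. Their median GC content was 56.8%, beside 60.4% over 10687 protein-coding genes with a peak at this TSS and 49.2% over 11245 without. CCAAT was found at 5 of the 9 (Ep300, Kat2b, Kat5, Kat7 and Kat8), against 35.9% of all 21932 protein-coding promoters read in the same way and 36.2% of the marked ones. GGGCGG was found at 4 (Ep300, Crebbp, Kat6b and Kat8), against 41.1% of all and 60.7% of marked promoters. CTTCCG was found at 1 (Ep300), against 16.6% of all and 26.9% of marked promoters, and CACGTG at 1 (Kat5), against 6.63% and 9.16%. TATAAA was found at 0 (11.2% of all and 5.69% of marked promoters), as was the NRF1 motif (0.953% and 1.67%). All 250 bases of each of the 9 windows lay inside a control peak.

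All 10 members had a control peak within 1 kb of at least 1 annotated TSS, against the 51.9% of protein-coding genes (11384 of 21938; 95% Wilson interval 51.2 to 52.6%, counting error only). All 10 also had a peak at the TSS of their longest isoform, against 48.7% of protein-coding genes. The members differed in how far the listed peak extended from the TSS. The authors merged peaks within 2 kb of each other, so a wide listed peak may join several separate ones.

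The widest promoter peak of a member ranged from 1862 bp at Crebbp to 123797 bp at Kat6b, which is 66.5 times as wide. The median over the 10 members was 3415 bp (2703 bp when only the longest isoform was used), beside 2304 bp over the 11384 marked protein-coding genes, whose quartiles were 1586 and 5191 bp. From the widest to the narrowest the order was Kat6b, Kat2b, Kat7, Ep300, Kat14, Kat2a, Kat6a, Kat8, Kat5 and Crebbp. After stitching of peaks up to 5 kb apart, Kat14 was 7727 bp wide and stood before Ep300. For the part inside the gene and 1 kb before it, Kat2b was 18230 bp wide and Kat2a, at 1431 bp, came last. Peaks of at least 10 kb stood at 2 of the 10 members, Kat6b and Kat2b, and at 11.8% of marked protein-coding genes. Kat7, at 9982 bp, fell just short of that width. Its value depended on the measure, with 21477 bp after peaks up to 5 kb apart were stitched, when 3 members reached 10 kb, and 5216 bp for the part inside the gene and 1 kb before it. At the lower end, Kat8 and Kat5 differed by 11 bp, and Kat2a and Kat6a by 106 bp. No replicate error is known for these widths, so the order of such neighbours is not established.

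**Figure D1:**
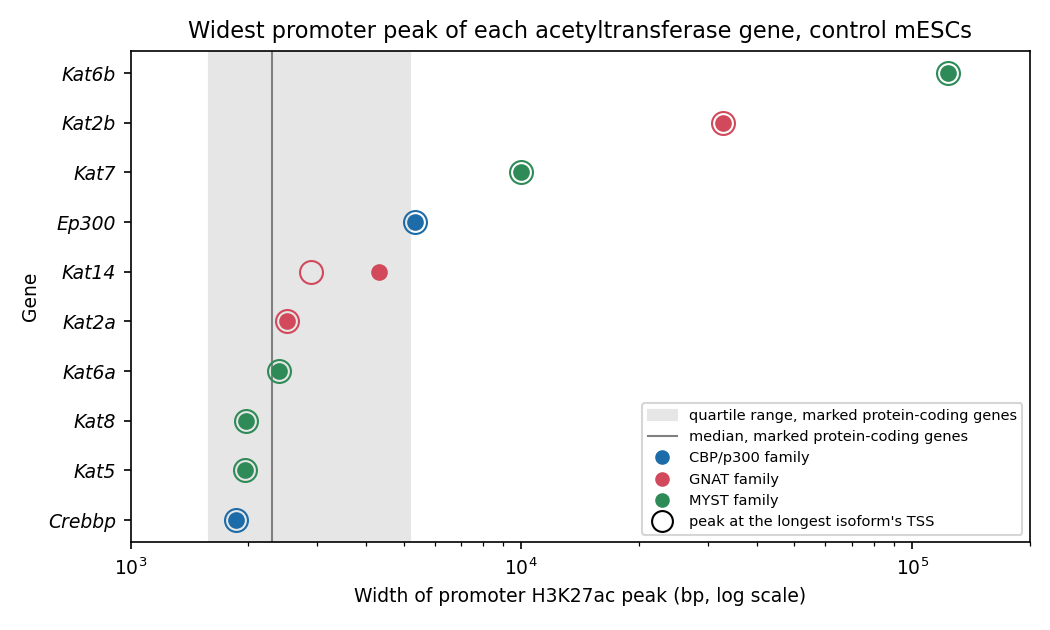
Width in bp (log axis) of the promoter H3K27ac peak of each acetyltransferase gene in control mESCs, from 1 pooled peak list with no replicate error. Filled points give the widest promoter peak, open circles the peak at the TSS of the longest isoform (they differ only for Kat14, 4323 and 2899 bp), and the grey band and line give the quartiles and median (2304 bp) of marked protein-coding genes. Kat6b, Kat2b, Kat7 and Ep300 lie to the right of the band.

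Closely related genes differed in width. Ep300 (5353 bp) was 2.87 times as wide as Crebbp (1862 bp), although the Crebbp gene is 1.99 times as long. Kat2b (32738 bp) was 13.1 times as wide as Kat2a (2507 bp), and the Kat2b gene is 13.7 times as long. Kat6b (123797 bp) was 51.6 times as wide as Kat6a (2401 bp), and the Kat6b gene is 2.28 times as long. Family medians lay closer together, at 3608 bp for the 2 CBP/p300 genes, 4323 bp for the 3 GNAT genes and 2401 bp for the 5 MYST genes. The GNAT value is that of Kat14, whose peak at the TSS of its longest isoform was narrower, at 2899 bp. Within the families, the widest peak was 2.87, 13.1 and 63.0 times as wide as the narrowest.

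Ep300 (ENSMUSG00000055024.12), which encodes p300, spans chr15:81585351-81652077 on the plus strand. Its single promoter peak covered chr15:81584211-81589563 and reached 1.19 kb upstream and 4.17 kb downstream of the TSS of the longest isoform, over exon 1 and into the gene. Of marked protein-coding genes, 75.7% had a narrower promoter peak. No further peak lay in the 66.7 kb gene, and 6.31% of its length was covered. The peaks within 50 kb were both downstream, at the promoter of L3mbtl2 (7021 bp wide, 11.1 kb from the gene) and at the promoters of Chadl and Rangap1 (24147 bp wide, 41.1 kb away). The second of these was wider than all peaks at Ep300 itself.

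Crebbp (ENSMUSG00000022521.10), which encodes CBP, spans chr16:4081328-4213997 on the minus strand. It had the narrowest promoter peak of the 10, chr16:4212863-4214724, over exon 1, and 36.2% of marked protein-coding genes had a narrower one. This peak was the richest in CpG among the members, with 71.9% GC and an observed to expected CpG ratio of 0.959, against medians of 53.0% and 0.572 over the 9748 distinct peaks that were the widest at a protein-coding promoter. A second peak of 1665 bp covered exons 22 and 23, 117 to 119 kb downstream, where 1 annotated protein-coding isoform starts, and another starts 195 bp past its downstream edge. It had 43.7% GC and a CpG ratio of 0.152. A peak of 1547 bp covered exon 31 near the 3′ end, and the promoter peak of Trap1 lay 2.85 kb beyond the gene.

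Kat2a (ENSMUSG00000020918.14) spans chr11:100704746-100712465 on the minus strand and is 7.72 kb long. Its promoter peak (chr11:100712035-100714541) was placed mainly upstream, reaching 2.08 kb before the TSS and 0.43 kb into the gene. The peak also held 2 TSSs of Hspb9, a small heat shock protein gene on the opposite strand, at -1385 and -1457 bp from the Kat2a TSS. The bases of the peak cannot be divided between the genes. Kat2a was the 1 member whose widest promoter peak held the TSS of another gene, against 29.4% of marked protein-coding genes. At Kat14, the peak at the TSS of the longest isoform, which was not its widest, also held the TSS of another gene, Pet117.

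Kat2b (ENSMUSG00000000708.14) spans chr17:53566861-53672720 on the plus strand. Its promoter peak, chr17:53551353-53584090, was the 141st widest of all 22973 peaks and was wider than that of 98.5% of marked protein-coding genes. It was nearly symmetric, reaching 15.6 kb upstream and 17.1 kb downstream, over exon 1 and part of intron 1, and the start of a further protein-coding isoform lay 36 bp past its end. Further peaks stood in intron 1 (1989 and 7891 bp), intron 2 (5032 bp) and intron 11 (1804 bp). With these 4, the largest number of gene body peaks among the members, 32.1% of the gene was covered. The first of them was 2.65 kb from the promoter peak.

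Kat14 (ENSMUSG00000027425.18) spans chr2:144368983-144407676 on the plus strand and had 3 separate promoter peaks. The peak at the TSS of the longest isoform, chr2:144368305-144371203, was 2899 bp wide and lay over exon 1. The TSS of Pet117, a mitochondrial protein gene on the same strand, lies 13 bp downstream of this TSS, so the peak cannot be assigned to one of these genes. A peak of 876 bp over exon 3 held the starts of processed transcripts of the gene. The widest peak, 4323 bp over exon 8 (chr2:144397540-144401862), lay 28.6 to 32.9 kb inside the gene and counted as a promoter peak because a retained-intron and a protein-coding isoform start 485 and 685 bp past its edge. Its CpG ratio was 0.180, against 0.604 for the peak at the main TSS. Peaks at 2 or more separate TSSs were found at 2 of the 10 members (Crebbp and Kat14) and at 10.1% of marked protein-coding genes.

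Kat5 (ENSMUSG00000024926.10) spans chr19:5603014-5610237 on the minus strand, and its promoter peak (chr19:5609323-5611288, 1966 bp) covered exons 1 to 4 of this compact gene. It reached 1.05 kb upstream and 0.914 kb downstream. Kat8 (ENSMUSG00000030801.10) spans chr7:127912516-127925837 on the plus strand, with a promoter peak (chr7:127911673-127913649, 1977 bp) reaching 0.843 kb upstream and 1.13 kb downstream. Kat6a (ENSMUSG00000031540.13) spans chr8:22859535-22943259 on the plus strand, and its promoter peak (chr8:22858310-22860710, 2401 bp) was centred on the TSS, with 1.23 kb before and 1.18 kb after it. These 3 MYST genes lay within the middle of the genome-wide distribution, since 42.4%, 43.2% and 51.5% of marked protein-coding genes had narrower peaks. The Kat6a peak was rich in CpG (66.1% GC, ratio 0.829), and a second peak of 1964 bp stood in intron 2, 40.8 kb from the TSS.

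Kat7 (ENSMUSG00000038909.16) spans chr11:95274259-95310246 on the minus strand. Its promoter peak (chr11:95306031-95316012) covered exons 1 and 2 and reached further upstream (5.77 kb) than downstream (4.22 kb). A peak of 7520 bp over exons 4 and 5 began 3.98 kb beyond it, and a peak of 1634 bp covered exon 14 at the 3′ end. In total 35.6% of the 36.0 kb gene was covered. Of 3198 marked protein-coding genes of 20 to 50 kb, 0.782% had more gene body peaks than Kat7 and 91.4% were covered over a smaller share.

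Kat6b (ENSMUSG00000021767.18) spans chr14:21481434-21672478 on the plus strand. Its promoter peak, chr14:21449395-21573191, was the second widest of all 22973 peaks, behind 1 peak on the Y chromosome. It covered exons 1 and 2, reached 50.4 kb upstream and 73.4 kb downstream of the TSS of the longest isoform, and took in 48.0% of the gene. Its upstream part passed alternative starts of Kat6b, the farthest at -18.4 kb, and went on for 32.0 kb before the first annotated start of the gene. No TSS of another protein-coding or lincRNA gene lay in it. The peak made up 66.2% of the summed widest promoter widths of the 10 members and was 1.96 times as wide as the other 9 together. Its base composition (44.8% GC, CpG ratio 0.220) was far from that of the 250 bases before the TSS (79.6% GC). Peaks of 3964 bp in intron 2 and 5289 bp over exon 17 brought the covered share of the gene to 51.8%. Of 1443 marked protein-coding genes of 100 kb and over, 99.3% were covered over a smaller share.

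At the main TSS, the 3 widest peaks had the lowest CpG ratios, at 0.220 for Kat6b, 0.276 for Kat2b and 0.367 for Kat7, and the other 7 members lay between 0.468 and 0.959 in no order of width. Ep300 (5353 bp), for example, had a ratio of 0.611 and the narrower Kat2a, Kat8 and Kat5 had 0.468, 0.474 and 0.491. The 4323 bp peak inside Kat14, away from its main TSS, had a ratio of 0.180. In the 1 kb around the TSS itself, GC content was 72.4% at Kat6b, 60.8% at Kat2b and 55.1% at Kat7. A wide peak includes more sequence away from the start, so its composition and its width are not independent. Of the 10 members, 6 had a peak reaching further downstream than upstream of the main TSS, beside 65.7% of 9675 protein-coding genes with that TSS inside a peak.

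**Figure D2:**
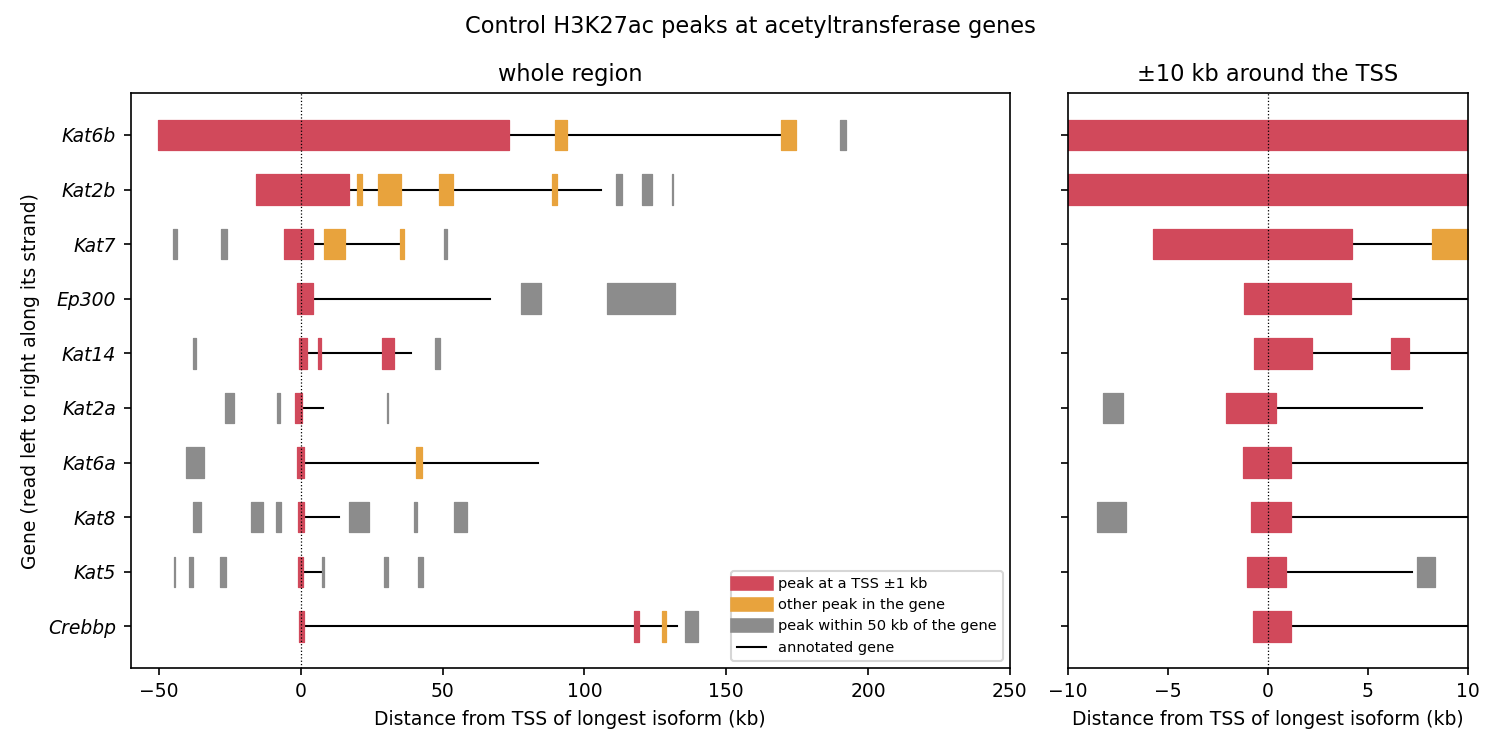
Control H3K27ac peaks at the 10 genes, drawn to scale along each gene's strand as distance in kb from the TSS of the longest isoform, over the whole region (left) and within 10 kb of the TSS (right). Red bars are peaks within 1 kb of an annotated TSS of the gene, orange bars other peaks in the gene, grey bars other peaks within 50 kb and black lines the annotated gene. The Kat6b bar runs from 50.4 kb before to 73.4 kb after the TSS, whereas Crebbp has a narrow bar at the TSS and others near its 3′ end.

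The members have 84 annotated isoforms, of which 56 (66.7%) started within 1 kb of a peak, beside 46.7% of all isoforms of protein-coding genes. Protein-coding isoforms were marked in 31 of 41 cases (49.4% over all protein-coding genes), processed transcripts in 13 of 17 (40.4%) and retained-intron transcripts in 11 of 23 (40.2%). Transcripts subject to nonsense-mediated decay were marked in 1 of 3 cases (57.6% over all protein-coding genes), too few for a comparison. The 28 unmarked isoforms all started downstream of the main TSS, 1.05 to 35.7 kb from the nearest peak. Isoforms of a gene share start sites, so these counts are not independent. All 4 isoforms of Kat2a and 10 of the 12 of Kat5 were marked, against 3 of the 10 of Ep300 and 3 of the 7 of Kat2b.

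Away from TSS windows, 5 of the 10 members had gene body peaks (Crebbp, Kat2b, Kat6a, Kat6b and Kat7), against 17.4% of protein-coding genes, marked or not. Crebbp lost its only such peak when 2 kb on either side of each TSS was left out, and Kat2b then had 3 in place of 4, so that the members had 8 in place of 10. Long genes hold more such peaks. All 3 members of 100 kb and over (Crebbp, Kat2b and Kat6b) had one with the 1 kb windows, though Crebbp did not with the 2 kb windows, as did 61.3% of marked protein-coding genes of that length. Of the 2 members of 50 to 100 kb, Kat6a had one and Ep300 had none (41.8% of such genes), and of the 2 of 20 to 50 kb, Kat7 had them and Kat14 did not (24.3%). None of the 3 members under 20 kb (Kat2a, Kat5 and Kat8) had one, against 9.65%. Median promoter peak width hardly varied with gene length over marked protein-coding genes, at 2475 bp under 20 kb and 2017 bp at 100 kb and over. In their own length class, Kat6b still exceeded 99.8% and Kat2b 98.0% of genes in width, and Crebbp 41.4%.

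Every member had at least 1 other peak within 50 kb of the gene, against 67.5% of protein-coding genes, and the members had 28 in all. The median was 2.5 per member, beside 2 over marked protein-coding genes (quartiles 1 and 4). The search starts at the ends of the gene, so a long gene is searched over a longer stretch. Counted within 50 kb of the main TSS, Ep300, Crebbp, Kat2b and Kat6b had 0 such peaks, and within 25 kb of the gene Kat6a had 0. Of the 28, 16 were promoter peaks of other genes, 5 lay in the body of other genes and 7 were intergenic. Kat5 and Kat8 had 6 each. For Kat5 they included the promoters of Rnaseh2c, 0.258 kb beyond the 3′ end, and of Rela, which encodes a subunit of NF-kB. For Kat8 they included the promoters of Bckdk and Vkorc1. Kat6a, Kat6b and Crebbp had 1 each. The Kat6a peak was intergenic and 6272 bp wide, 34.2 kb upstream, and was wider than the peak at the Kat6a promoter. Proximity does not assign a peak to a gene, and the target of none of these peaks was tested.

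**Figure D3:**
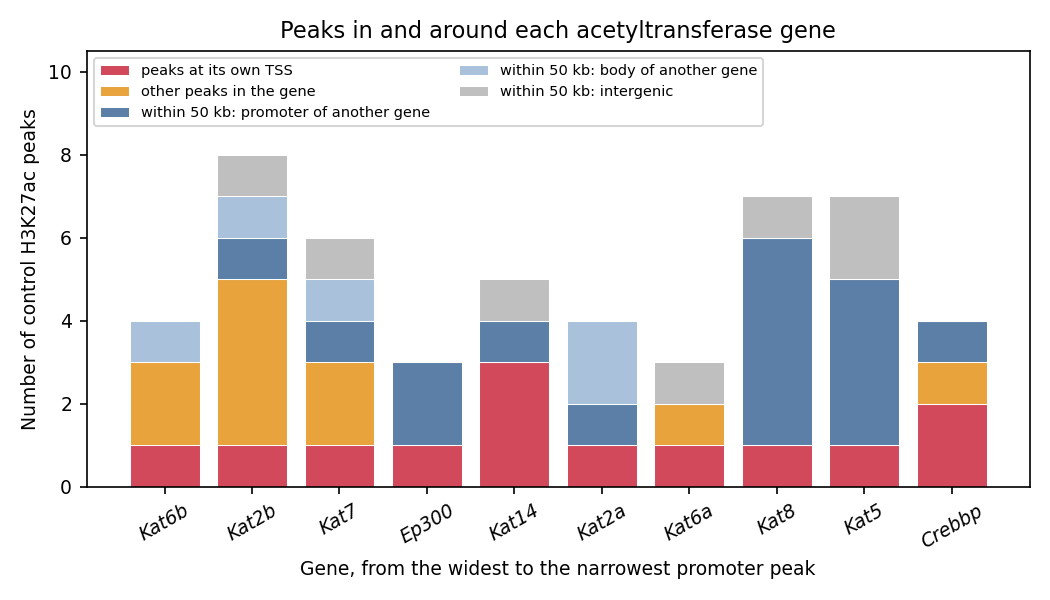
Number of control H3K27ac peaks (linear axis from 0) at the TSSs, in the rest of the gene and within 50 kb of each acetyltransferase gene, the last divided by what lies under them. Kat2b has 4 other peaks in the gene and Kat14 has 3 at TSSs, whereas Kat5 and Kat8 are the members with the most neighbouring peaks, 6 each, of which 4 and 5 are promoters of other genes.

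The genes for partner subunits were marked nearly throughout. Of 54 partners in 4 lists, 52 (96.3%) had a promoter peak, with a median width of 2702 bp, beside the 51.9% and 2304 bp of all protein-coding genes. For the GNAT enzymes, 19 of 20 SAGA and ATAC partners were marked, with a median of 2034 bp. Zzz3, a DNA-binding ATAC subunit, was the exception, and Tada3 (19260 bp), Taf5l (12106 bp) and Wdr5 (10702 bp) reached 10 kb. Over all marked protein-coding genes, 11.8% had a promoter peak of at least 10 kb. All 16 NuA4 partners of KAT5 were marked (median 2568 bp), and Morf4l2 alone reached 10 kb (12464 bp). It lies on the X chromosome, where promoter peaks were wider, with a median of 6073 bp over 307 genes against 2241 bp over 11073 autosomal genes. All 10 acetyltransferase members are autosomal.

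All 8 partners of KAT6A, KAT6B and KAT7 were marked (median 3307 bp), and the widest were the scaffold gene Brd1 (40131 bp) and Jade1 (65307 bp), which encodes an HBO1 partner. Of 10 MSL and NSL partners of KAT8, 9 were marked, with a median of 10328 bp. Without the genes of the X chromosome the median was 5829 bp (a setting added after the data had been seen). With the X-linked genes it was the highest among the lists of related genes. Without them it was below the 6797 bp of the BET genes, of which 3 of 4 were marked. The 5 at or over 10 kb were Kansl2 (10328 bp), Phf20 (10868 bp), Mcrs1 (11318 bp) and the X-linked Hcfc1 (60959 bp) and Ogt (42890 bp). Msl3, on the X chromosome, had no promoter peak. Kat8 itself had a peak of 1977 bp, narrower than the median of its partners.

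Of 15 other genes with a reported acetyltransferase activity, all were marked (median 2815 bp). The widest was Ncoa3 (77746 bp), a nuclear receptor coactivator, followed by Taf1 (20248 bp, on the X chromosome), Hat1 (15955 bp), Ncoa1 (14409 bp), Naa50 (11634 bp) and Atat1 (11097 bp). Of the 11 deacetylase genes, which encode enzymes that remove acetyl groups, 7 were marked (63.6%, median 3870 bp), beside 51.9% of protein-coding genes. Hdac8, Hdac9, Hdac10 and Hdac11 had no promoter peak, and Hdac1 (18104 bp) and the X-linked Hdac6 (12159 bp) reached 10 kb. Of marked protein-coding genes, 11.8% reached that width.

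**Figure D4:**
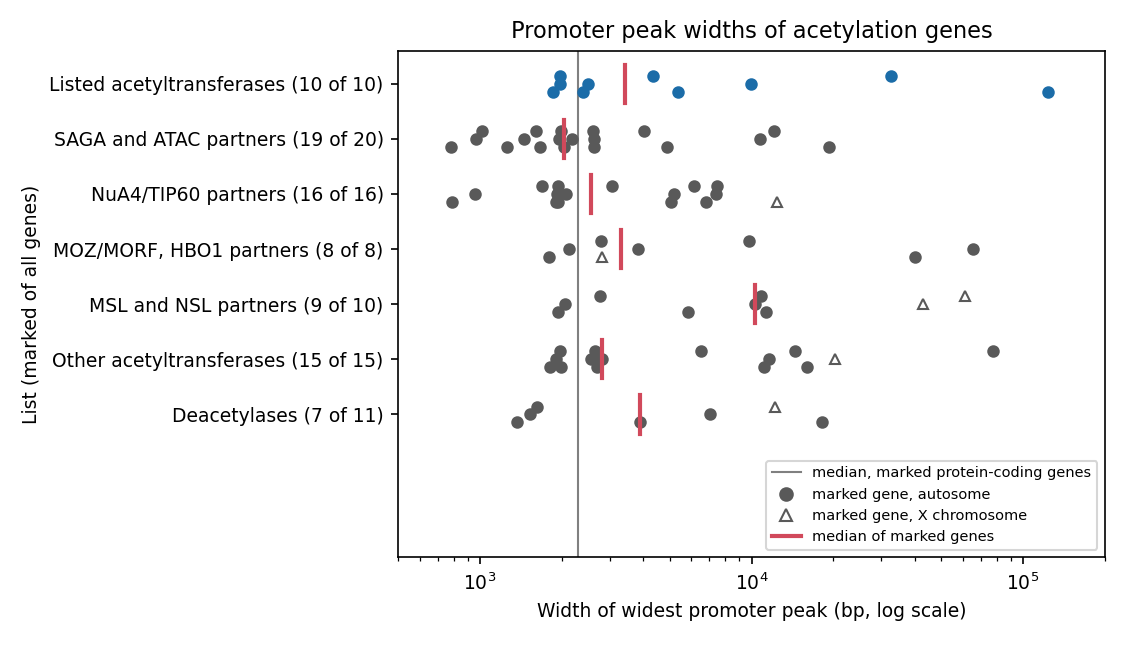
Width in bp (log axis) of the widest promoter peak of each marked gene, by list, with the number of marked genes of all genes in the list. Points are genes, triangles those on the X chromosome, red bars the median of each list and the grey line the median of marked protein-coding genes (2304 bp). Kat6b, at 123797 bp, is the rightmost point. Of the lists drawn, the MSL and NSL partners have the highest median (10328 bp, and 5829 bp without the X chromosome). The BET genes (median 6797 bp with or without the X chromosome) are not drawn.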

How the data were processed

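H3K27ac was profiled by ChIP-seq (antibody ab4729) in 6 mESC samples. Per the methods and the labels, the authors trimmed reads with Cutadapt, aligned them with BWA to mouse mm10 and a human genome, removed duplicates (Picard 2.9.1) and poorly mapped reads (SAMtools 1.4), called peaks with LanceOtron, merged those within 2 kb and filtered them on height and on distance to ATAC-seq summits. The values used here, as deposited, are start and end positions in base pairs, for control replicates pooled. The merging bounds what a width can mean, and the nearest listed peaks lay 2001 bp apart. A gene with no listed peak may have failed a filter.

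Peaks were joined to GENCODE M21 (GRCm38, the build of the peaks) with Python 3.11.15 and numpy 2.4.6, and sequence was read with pysam 0.24.0. No peak ran past a chromosome end. A promoter was marked where at least 1 bp of a peak lay within 1 kb of the TSS of any isoform. The main TSS belongs to the isoform that spans the most genome. Widths were compared with those of all marked protein-coding genes, without a test. The peak assignment was tested on simulated data. All 10 members are named, and genes of the partner and enzyme lists only where unmarked or with a promoter peak of at least 10 kb. The marked markers of other cell types were named after their values were seen. Members and lists were chosen with earlier results of these data known. Alternatives varied the window, isoforms, minimum width, overlap, stitching and flank. Some items of the lists and neighbouring genes are not reported here.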

Additional observations from a re-analysis of the deposited data

How the results depend on the processing

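All 10 members kept a marked promoter under the 7 alternatives of window, isoform, peak width and overlap. The share of protein-coding genes marked was 52.7% with TSS windows of 2 kb on either side, 49.1% where a peak had to hold the TSS, 48.7% with the longest isoform alone, 51.1% with protein-coding isoforms alone, 46.6% with peaks of at least 1 kb and 50.5% with an overlap of at least 500 bp. The median width over members fell to 2703 bp where a peak had to hold the TSS or with the longest isoform alone, where Kat14 gives 2899 bp, and was 3930 bp after stitching peaks up to 5 kb apart and 3249.5 bp for the part inside the gene and 1 kb before it. The median over marked protein-coding genes was 2294.5 bp (500 bp windows), 2316 bp (2 kb windows), 2388.5 bp (TSS inside a peak), 2173 bp (longest isoform), 2224 bp (protein-coding isoforms), 2641 bp (peaks of at least 1 kb), 2364 bp (overlap of 500 bp), 2779 bp (stitched) and 1969.5 bp (inside the gene). Stitching widened Kat2b to 37379 bp, Kat7 to 21477 bp and Kat14 to 7727 bp, which put Kat14 before Ep300 and 3 members over 10 kb. The part inside the gene and 1 kb before it was smaller for 7 members, by over 1.5 times for Kat7 (5216 bp), Kat2b (18230 bp) and Kat2a (1431 bp), which came last. Kat6b and Kat2b were the widest under each of these settings. Gene body peaks of the members numbered 8 with 2 kb windows left out, when Crebbp had 0, and 8 after stitching, when Kat7 had 1. Neighbouring peaks of the members numbered 15 within 25 kb, 58 within 100 kb and 19 within 50 kb of the main TSS. No paired analysis was possible because the 1 peak list pools both control replicates. Peak height is not used here, so a narrow and a weak peak cannot be told apart.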
